A study of Homo sapiens with 6 samples.

Results

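The genes described here are 4 related groups that remodel proteins at and around the cell surface: the ADAM and ADAMTS metalloproteases, the matrix metalloproteases (MMPs) and their natural inhibitors, the TIMPs. They were taken by gene symbol (ADAM, ADAMTS or MMP followed only by digits, and TIMP1 to TIMP4), which gave 67 of the 25680 genes in the count files: 22 ADAM, 19 ADAMTS, 22 MMP and 4 TIMP genes. U87 cells, an established human glioblastoma line labelled wild type, received 500 nM of the rhodamine-tagged cyclic peptide EPP6 for 1 h. The cells were detached and sorted by fluorescence, and RNA was sequenced from the brightest 30% (high uptake) and from the dimmest 30% (low uptake), with 3 libraries each, numbered 2, 3 and 4 in the labels. Cells of both groups had received the peptide, and both come from a single cell line. The comparison of high with low uptake asks which genes differ between cells that took up more and less of the peptide. Messenger RNA was measured, not protease protein or activity.

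ADAM proteases sit in the plasma membrane, where several of them cut off (shed) the outer parts of other membrane proteins. ADAMTS proteases are secreted, bind the extracellular matrix and cleave proteoglycans or trim procollagens. MMPs degrade matrix proteins and are made as inactive precursors, and TIMPs bind the active enzymes and block them. In glioblastoma, MMP2 and the membrane-anchored MMP14 are known for their part in invasion, and MMP14 activates the MMP2 precursor on the cell surface with TIMP2 acting as the link between the pair.

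Total counts ranged from 13712263 to 40742857 per library, the smallest being high replicate 3. Whether the replicates came from separate cultures is not stated in the labels; a p-value here therefore reflects the spread among these libraries alone, and that spread may be technical. Low replicates 3 and 4 were closer to each other (chi-square of 2.44 per degree of freedom) than any other pair within a group (12.2 to 20.8). Of 9 markers of U87 and glioma cells, 7 reached a mean of 1 CPM over the 6 libraries (counts per 1000000 counted reads, after TMM scaling of the library totals), and VIM, NES and CD44 were among them, whereas SOX2 and GFAP were under 1 CPM. Of the markers of other cell types, CD68 alone of 6 immune markers, 2 of 5 endothelial, 2 of 5 epithelial and 3 of 5 neuronal markers reached that mean. Of 6 fibroblast markers, FAP, LUM and PDGFRB rose, PDGFRA (adjusted p = 0.113 in edgeR) and THY1 (0.881) did not pass, and DCN, under 1 CPM in every library, was not tested. Their sum was 142 to 157 CPM in high uptake and 81 to 96 CPM in low uptake. The summed neuronal markers stood at 50.1 to 54.6 against 39.5 to 43.3 CPM, a gap carried mainly by SNAP25 (25.2 ± 4.17 against 14.7 ± 2.1 CPM), the only one that passed, while GAD1, SYT1 and RBFOX3 overlapped and STMN2 was at 0 throughout. The part of these markers in the results below was not tested. In such bulk samples, fewer cells with a transcript and less of it per cell cannot be told apart.

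Members that passed the test were mostly higher in high uptake. Of 41 members with enough counts to be tested, 7 rose and 1 fell at an adjusted p under 0.05 (edgeR's quasi-likelihood test, Benjamini-Hochberg adjustment over all 14598 tested genes). That is 19.5% of the tested members, where 4.29% of all tested genes passed in either direction, 3.03% as higher and 1.26% as lower. The genes that rose were TIMP2, MMP2, ADAM12, ADAMTS1, ADAMTS4, ADAMTS12 and ADAMTS18, and the gene that fell was ADAMTS3. In 14 members the 3 high-uptake values all lay above the 3 low-uptake values, and in 4 all lay below, against 13.0% and 11.4% of all tested genes. At an unadjusted p under 0.05 there were 17 of the 41 members, where 18.4% of all tested genes lay under it. The median log2 fold change was 0.13 over the 41 members and 0 over all tested genes. By subfamily, 1 of 13 ADAM genes, 5 of 13 ADAMTS genes, 1 of 11 MMP genes and 1 of 4 TIMP genes passed, with median log2 fold changes of 0.03, 0.16, 0.26 and 0.20. Only the calls of TIMP2 and ADAMTS4 held under each of the 19 other settings tried. The number of members that rose was 2 without high replicate 2, low replicate 3 or low replicate 4, and 4 without high replicate 4. Of all tested genes, 1.46% passed as higher when high replicate 2 was dropped and 1.87% when high replicate 4 was. On dropping low replicate 3 or low replicate 4 the share was 1.40% or 1.22%. After removal of the gene length trend of each library, 4 rose and 2 fell, where 2.88% of all tested genes passed. After removal of the GC trend, 13 rose and 2 fell, where 18.7% of all tested genes passed. DESeq2 called 8 as higher and 2 as lower (5.99% of all tested genes), and limma called the same numbers as edgeR (4.40%).

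**Figure D1:**
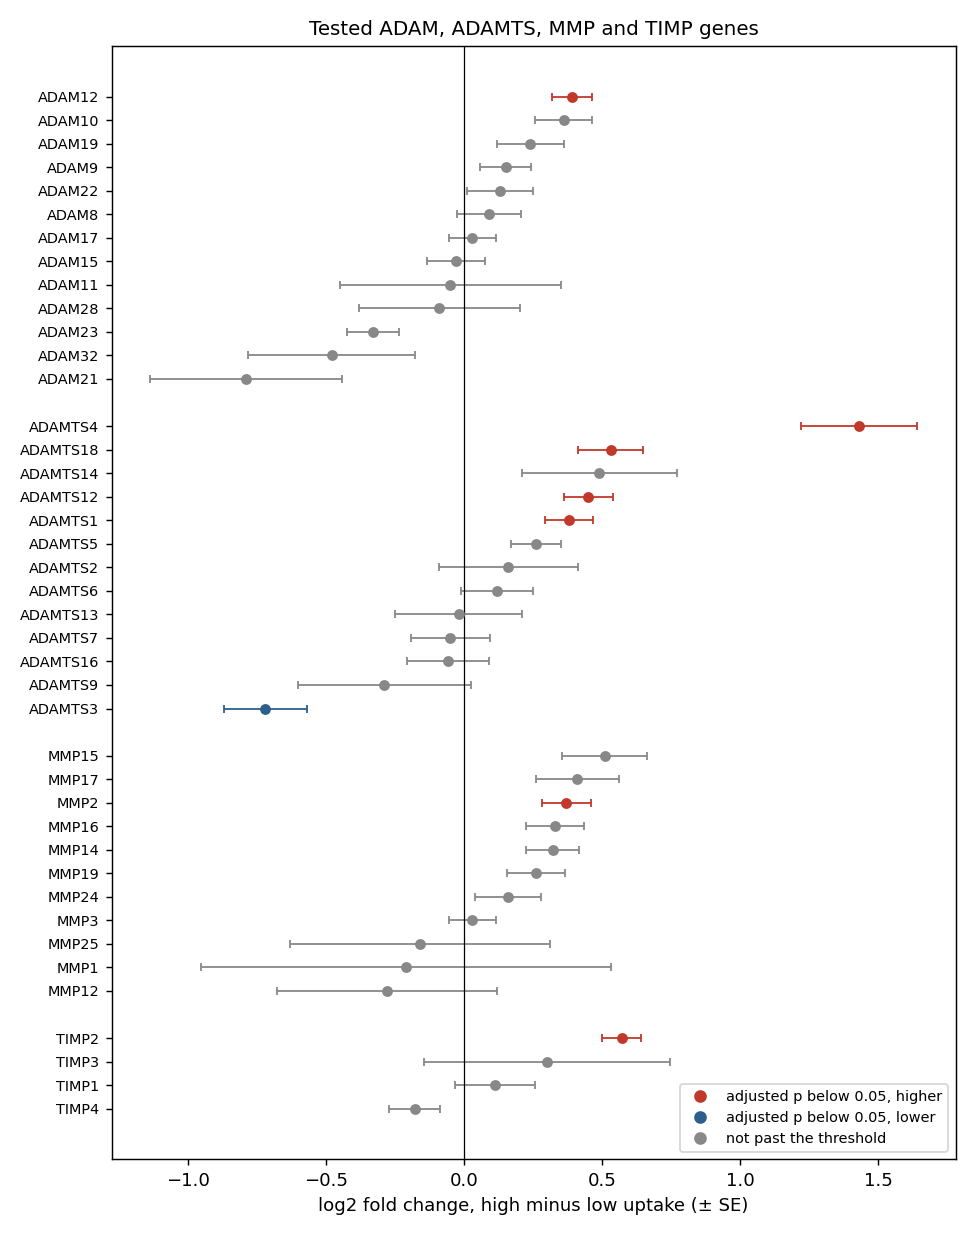
Log2 fold change of each of the 41 tested genes, high minus low uptake, by subfamily; bars are 1 standard error and colour marks genes past an adjusted p of 0.05. ADAMTS4 lies farthest to the right at 1.43 with its bar clear of every other gene, and ADAMTS3, at -0.72, is the only called gene left of 0.

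**Figure D2:**
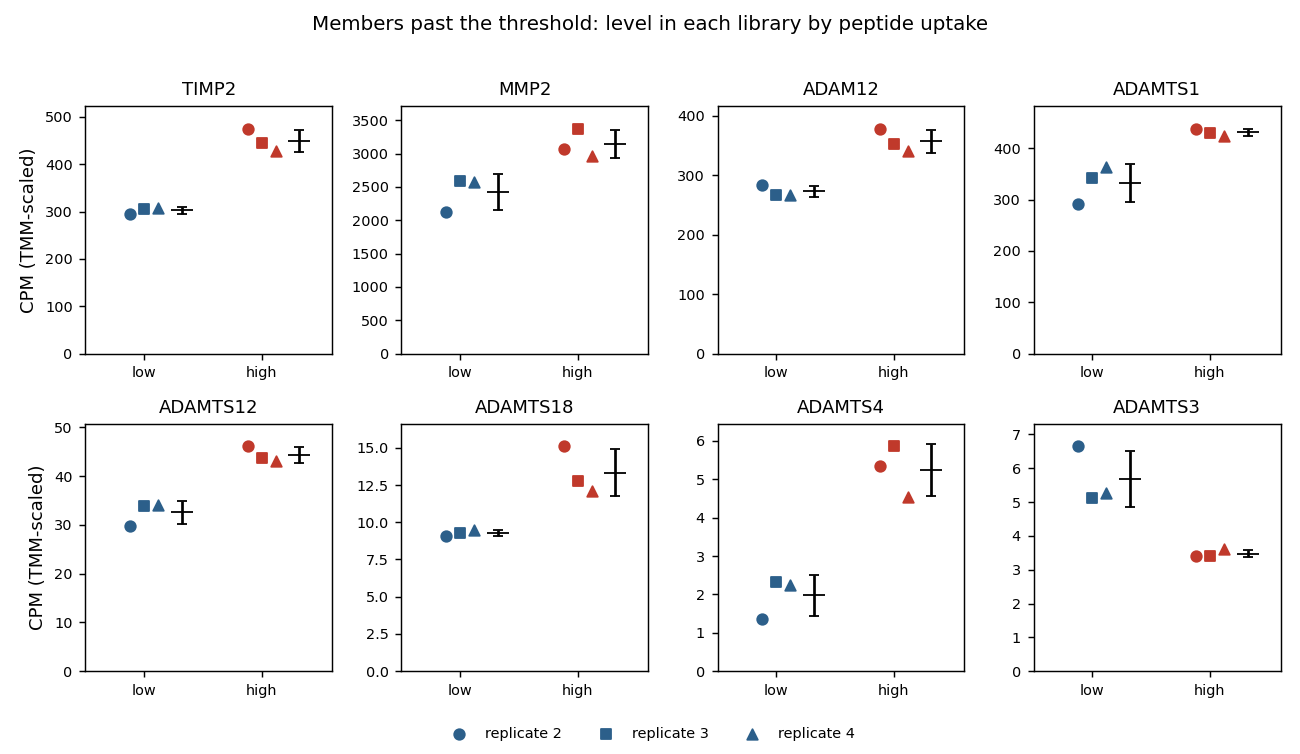
CPM of the 8 called members in each library (low uptake in blue, high uptake in red, symbol by replicate number), with the mean and SD of each group beside the points and the vertical axes starting at 0. In none of the 8 do the groups overlap: TIMP2 runs from 294 to 308 CPM in low uptake and from 428 to 475 CPM in high uptake.

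Compared per length of transcript, with the authors' TPM (transcripts scaled for length to a total of 1000000 per library), the members covered a wide range of levels. MMP2 was the highest at 1761 ± 293 TPM (mean ± SD over the 6 libraries), followed by TIMP1 at 737 ± 119.9, MMP14 at 517 ± 80.5, ADAM9 at 284 ± 33.8, TIMP2 at 250.3 ± 57.5, ADAMTS1 at 199 ± 32.9 and MMP3 at 134 ± 9.76 TPM. In that order each gene lay above the next in all 6 libraries, except that ADAM9 lay above TIMP2 in 5 of 6. ADAM12 and ADAM10, at 85.8 ± 14.2 and 84.8 ± 15.9 TPM, could not be ordered, as ADAM12 was above ADAM10 in 2 of 6 libraries. Below 20 TPM most neighbours in the order changed places between libraries. MMP2 alone made up 69.6% to 71.9% of all MMP transcripts by TPM, ADAMTS1 74.9% to 77.9% of ADAMTS, TIMP1 61.6% to 73.5% of TIMP and ADAM9 43% to 48.7% of ADAM transcripts. So 1 gene held most of the MMP, ADAMTS and TIMP transcripts but not of the ADAM transcripts. For MMP, ADAMTS and ADAM the summed TPM was higher in every high-uptake library than in any low-uptake library: 2804 ± 139 against 2169.7 ± 209.9 for MMP, 295 ± 2.53 against 227 ± 21.4 for ADAMTS and 657 ± 46.3 against 568 ± 25.2 for ADAM (n = 3 each, no test). The summed TIMP TPM overlapped, at 1153 ± 132 and 979 ± 122, since high replicate 2 lay at 1001 TPM and low replicates 3 and 4 at 1062 and 1037 TPM. TIMP transcripts stood at 0.411 ± 0.044 per MMP transcript in high uptake and 0.45 ± 0.0144 in low uptake, which overlap.

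**Figure D3:**
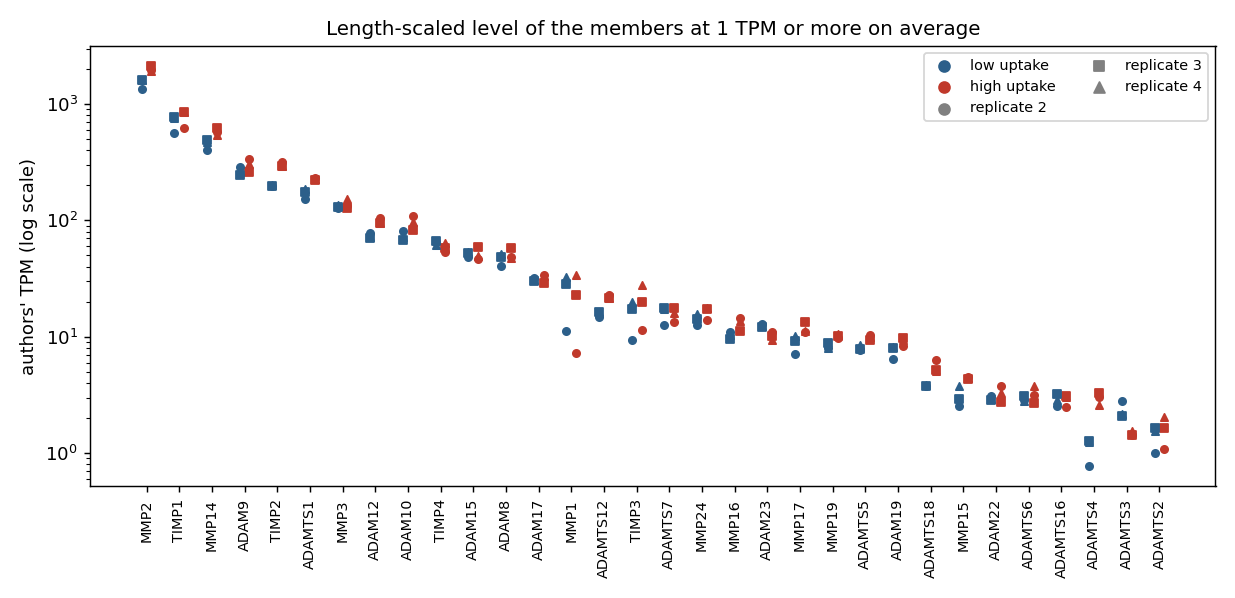
The authors' TPM, on a log axis, of the 32 members with at least 1 TPM on average, in falling order of their mean, with 1 point per library (colour by group, symbol by replicate number). The levels fall from 1761 TPM for MMP2 to 1.5 TPM for ADAMTS2, and the circles of replicate 2 lie low in both groups for MMP1 and TIMP3.

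Among the inhibitors, TIMP2 rose and the others did not pass. TIMP2, which blocks MMPs and also links the MMP2 precursor to MMP14, stood at 475, 444 and 428 CPM in high replicates 2, 3 and 4 and at 294, 305 and 308 CPM in low replicates 2, 3 and 4. The lowest high-uptake library was far above the highest low-uptake library, and the libraries of each group lay close together. The difference was 1.48-fold (nominal 95% interval, by a normal approximation from the standard error, 1.35 to 1.64). Its log2 fold change was 0.57 (SE 0.0717, edgeR adjusted p = 0.00191), with the smallest p of all members. TIMP1, an inhibitor of most soluble MMPs, stood at 229.7, 323 and 312 CPM in high and 213, 301 and 289.5 CPM in low uptake. Its libraries numbered 2 were the lowest of both groups, the groups overlapped and the fold of 1.08 had an interval of 0.883 to 1.31 (adjusted p = 0.767). TIMP3, the inhibitor that binds to the matrix and blocks ADAM proteases too, spread even more, from 25.5 to 60.7 CPM in high and from 20.9 to 46.1 CPM in low uptake (log2 0.30, SE 0.444, adjusted p = 0.796). Here again both libraries numbered 2 were the lowest of their group. TIMP4 stood at 35.4, 38.7 and 41.5 CPM in high and 43.6, 45.6 and 41.6 CPM in low uptake (log2 -0.18, SE 0.0918, adjusted p = 0.339); the values did not overlap, by a margin of less than 1 CPM. TIMP1 transcripts outnumbered TIMP2 transcripts 2.58 ± 0.563 times in high and 3.53 ± 0.56 times in low uptake by TPM, which overlap at the edge (2.91 and 2.89). In GENCODE release 29, exons of TIMP2 and TIMP4 overlap those of AC022966.1 and SYN2 on the opposite strand. The overlaps cover 6.52% and 10.3% of their exon bases, and whether the counting used strand is not given in the sources used here. CEP295NL overlaps 3.52% of the exon bases of TIMP2 on the same strand, where strand would not separate the reads. The same holds for AC007336.3 with 3.53% of the exon bases of MMP2 and for DCST1 with 4.65% of those of ADAM15.

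Of the gelatinases, MMP2 rose and MMP9 was too low to test. MMP2, which degrades denatured collagen and basement membrane, stood at 3072, 3372 and 2969 CPM in high uptake and 2118, 2581 and 2580.2 CPM in low uptake. Every high-uptake library was above every low-uptake library, with low replicate 2 the lowest of the 6. The difference of 1.29-fold (interval 1.15 to 1.46; log2 0.37, SE 0.0894, adjusted p = 0.0414) lay near the threshold: leaving out any single library ended the call (adjusted p 0.0628 to 0.0984), as did other settings: it was lost with upper quartile scaling (0.0599), with a filter of 50 counts in 3 libraries (0.0606), with both libraries numbered 2 left out (0.0594) and with the gene length trend removed (0.0936). MMP9, the other gelatinase, had 2, 12 and 3 counts in high and 2, 2 and 2 counts in low uptake. By TPM, TIMP2 stood at 0.151 ± 0.0121 of MMP2 in high uptake and 0.132 ± 0.0123 in low uptake, with overlap.

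The membrane-type MMPs, which are anchored at the cell surface, gave no call as tested: of 6, none passed in edgeR, DESeq2 or limma. The log2 fold change was above 0 in 5 and below 0 in MMP25. In 4 of the 6 all high-uptake values lay above all low-uptake values, against 13.0% of all tested genes, and 4 were at an unadjusted p under 0.05, against 18.4%. MMP14, the activator of MMP2, stood at 838, 931 and 777 CPM in high and 589.9, 739 and 709.6 CPM in low uptake (1.25-fold, interval 1.09 to 1.43, adjusted p = 0.0954). All high-uptake libraries of MMP14 lay above all low-uptake libraries, by 38 CPM at the closest. MMP15 stood at 8.17, 7.94 and 7.92 CPM against 4.63, 5.5 and 7.04 CPM (1.42-fold, adjusted p = 0.0952) and is given, after its values were seen, to complete the group. MMP16 stood at 37.7, 29.5 and 35.1 against 28.5, 25.7 and 27.4 CPM (1.26-fold, adjusted p = 0.106). MMP17, held by a lipid anchor in place of a membrane-spanning stretch, stood at 10.9, 13.3 and 10.9 against 7.04, 9.27 and 10.2 CPM (1.32-fold, adjusted p = 0.169). For MMP14, MMP15, MMP16 and MMP17 alike, the groups were separated but close. MMP24 overlapped (log2 0.16, adjusted p = 0.514), and reads of MMP24 may be shared with MMP24OS, whose exons cover 18.1% of its exon bases on the opposite strand. MMP25, with a log2 fold change of -0.16 (SE 0.471), was under 1 CPM in most libraries. MMP14, MMP15, MMP16 and MMP17 passed once the GC trend was removed (adjusted p 0.00178 for MMP14), a setting in which 18.7% of all tested genes passed, MMP14 and MMP15 passed without a filter, and MMP16 passed without high replicate 3 (log2 0.41, adjusted p 0.0245).

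**Figure D4:**
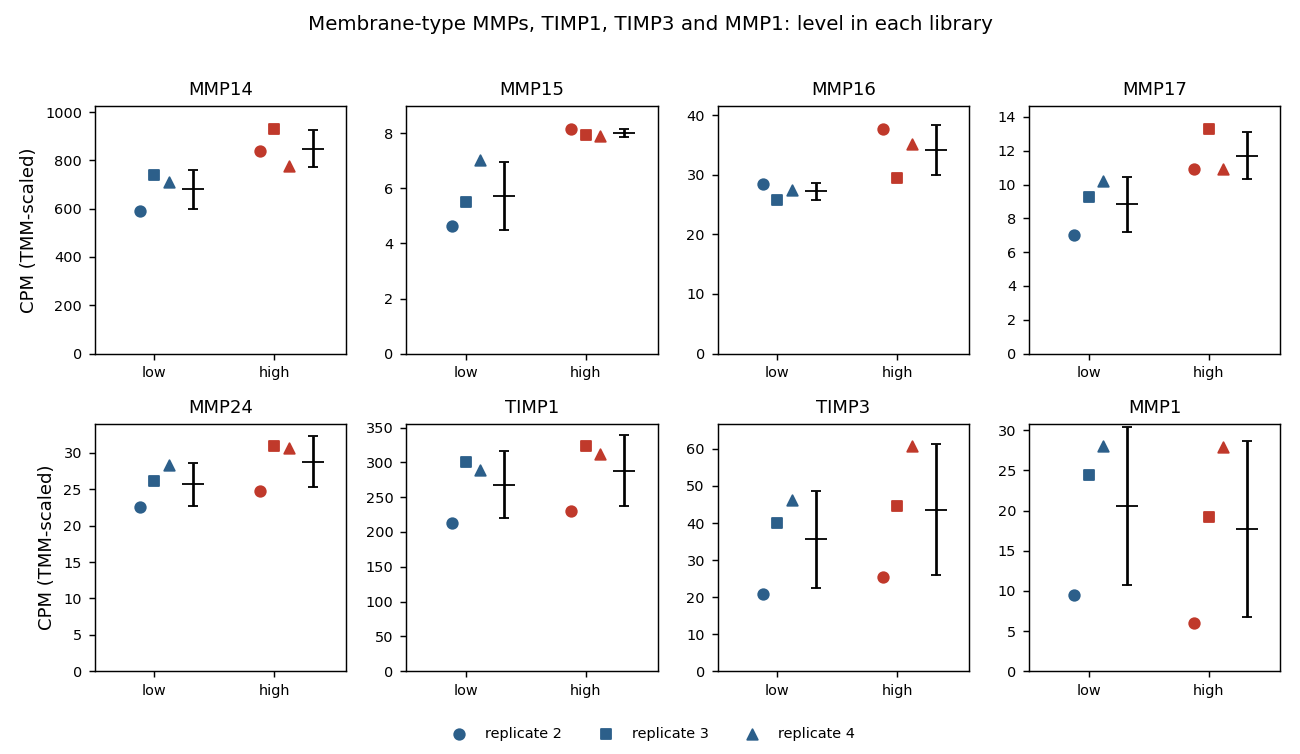
CPM in each library of the 5 membrane-type MMPs above 1 CPM in every library, and of TIMP1, TIMP3 and MMP1 (low uptake in blue, high uptake in red, symbol by replicate number; mean and SD beside the points; axes start at 0). MMP14 to MMP17 are separated by group, MMP14 at 589.9 to 739 against 777 to 931 CPM, and MMP24 overlaps, whereas TIMP1, TIMP3 and MMP1 are lowest in the libraries numbered 2 of both groups.

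The secreted collagenases and stromelysins gave no call. MMP1, a collagenase that cuts fibrillar collagen, stood at 6.04, 19.2 and 27.9 CPM in high and 9.44, 24.4 and 28 CPM in low uptake. Its spread within each group was far larger than the difference between them (fold 0.865, interval 0.316 to 2.37, adjusted p = 0.928), and the libraries numbered 2 were the lowest of both groups. MMP3, a stromelysin that also activates other MMP precursors, lay between 95 and 112 CPM in all 6 libraries (fold 1.02, interval 0.91 to 1.15, adjusted p = 0.891). That interval rests on a normal approximation and is narrower than edgeR's test implies, so it bounds the MMP3 difference only roughly. MMP19, of neither class, stood at 13.4, 14.1 and 14.4 against 11.1, 12.6 and 11.3 CPM without overlap (log2 0.26, adjusted p = 0.217), and 17.4% of its exon bases overlap TMEM198B on the opposite strand. MMP1 and MMP3 belong to a row of 9 neighbouring MMP genes on chromosome 11 (MMP7, MMP20, MMP27, MMP8, MMP10, MMP1, MMP3, MMP12 and MMP13, in the order of the RefSeq annotation of GRCh38.p14). Of these 9, MMP3 and MMP1 alone exceeded 1 TPM, at 134 and 22.6 TPM. MMP12, the macrophage elastase, was tested at 0.706 TPM (log2 -0.28, SE 0.398), and the other 6 were too low to test.

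The ADAMTS genes gave 5 of the 8 calls among members. In the clade that cleaves the large proteoglycans aggrecan, versican and brevican, ADAMTS1 and ADAMTS4 passed, both higher in high uptake. ADAMTS4 had the largest fold of all members, from 216, 79 and 151 read counts in the high-uptake libraries 2, 3 and 4, compared with 53, 51 and 46 in the low-uptake ones. In CPM this is 5.35, 5.86 and 4.53 against 1.37, 2.32 and 2.25, so that the lowest high-uptake value was nearly double the highest low-uptake value. The fold was 2.7 (interval 2.03 to 3.6; log2 1.43, SE 0.211, adjusted p = 0.00395), and without single libraries the log2 fold change ranged from 1.18 to 1.57 with the call kept each time. ADAMTS1, the most abundant ADAMTS gene, stood at 438, 430.3 and 424 CPM in high and 291, 342 and 363 CPM in low uptake. The high-uptake libraries of ADAMTS1 lay within 14 CPM of each other and above all low-uptake libraries (1.3-fold, interval 1.15 to 1.46; log2 0.38, SE 0.0864, adjusted p = 0.0335). Its call held without high replicate 3 and was lost without each of the other 5 libraries (adjusted p 0.0546 to 0.0882), with both libraries numbered 2 left out (0.0572) and with the length trend removed (0.0886). ADAMTS5, the other main aggrecanase and the direct neighbour of ADAMTS1 on chromosome 21, stood at 40.7, 37.2 and 38.3 against 30.6, 32 and 34.7 CPM, separated but not past the threshold (log2 0.26, SE 0.0896, adjusted p = 0.142). Per length, ADAMTS4 reached 0.303 ± 0.0447 of the ADAMTS5 level in high uptake and 0.135 ± 0.0319 in low uptake, without overlap. ADAMTS9 did not pass (log2 -0.29, SE 0.314), and ADAMTS8, ADAMTS15 and ADAMTS20 were too low to test.

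The procollagen N-proteinases, which trim the amino-terminal ends of procollagens, held the only member that fell. ADAMTS3 stood at 3.42, 3.41 and 3.6 CPM in high uptake and 6.65, 5.13 and 5.28 CPM in low uptake, from 138, 46 and 120 against 257, 113 and 108 counts. The 3 high-uptake values were almost equal, and each was well under the lowest low-uptake value. The fold was 0.607 (interval 0.495 to 0.745; log2 -0.72, SE 0.151, adjusted p = 0.0226). The call was lost on leaving out a library numbered 2 or 4 of either group (adjusted p 0.0578 to 0.0685) and with both libraries numbered 2 left out (log2 -0.56, adjusted p 0.0516). The other two of this type, ADAMTS2 and ADAMTS14, had log2 fold changes of 0.16 (SE 0.251, adjusted p = 0.808) and 0.49 (SE 0.281, adjusted p = 0.383) and overlapped between groups. Whether ADAMTS3 differs from them in its change was not tested.

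Of the remaining ADAMTS genes, ADAMTS12 and ADAMTS18 rose. ADAMTS12, which cleaves the cartilage oligomeric matrix protein COMP, stood at 46.1, 43.8 and 43.1 CPM in high and 29.8, 33.8 and 34 CPM in low uptake (1.37-fold, interval 1.21 to 1.54; log2 0.45, SE 0.0899, adjusted p = 0.0187). The groups were well apart, with low replicate 2 again the lowest. The ADAMTS12 call was kept without high replicate 3 or low replicate 2 and lost on leaving out any other library (adjusted p 0.0529 to 0.0692). ADAMTS7, its closest relative by substrate, stood between 28.6 and 40.7 CPM in all libraries and overlapped fully (log2 -0.05, SE 0.143, adjusted p = 0.910); 65.7% of its longest transcript is alike in the pseudogene ADAMTS7P3, so that its reads may be split. ADAMTS18 stood at 15.1, 12.8 and 12.1 CPM in high and 9.08, 9.31 and 9.48 CPM in low uptake (1.44-fold, interval 1.23 to 1.69; log2 0.53, SE 0.116, adjusted p = 0.0281). High replicate 2 was the highest of the 6, and the low-uptake values were nearly equal. The ADAMTS18 call was lost without high replicate 2 (log2 0.42, adjusted p 0.102), low replicate 2, low replicate 3 or low replicate 4 (up to 0.103), with both libraries numbered 2 left out (0.0645) and with the length trend removed (0.0525). ADAMTS6, ADAMTS13 and ADAMTS16 did not pass, with log2 fold changes from -0.06 to 0.12.

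Promoter sequence from RefSeq was at hand for 38 of the 67 members, among them 4 of the 8 called. These 4 are printed as the only called members with a promoter at hand, and they include the called gene that fell, ADAMTS3. Each run is the 250 bases before the annotated start in GRCh38.p14, written 5′ to 3′ on the gene's strand. Capitals mark matches on either strand to the AP-1 letters TGANTCA, the GC box GGGCGG (bound by SP1) or the TATA box TATAAA. The AP-1 letters are wider than the response element of FOS and JUN dimers: they allow any base at the centre, where the element has C or G. No capital match overlaps another.
ADAMTS3, chr4:72569222-72569471, minus strand: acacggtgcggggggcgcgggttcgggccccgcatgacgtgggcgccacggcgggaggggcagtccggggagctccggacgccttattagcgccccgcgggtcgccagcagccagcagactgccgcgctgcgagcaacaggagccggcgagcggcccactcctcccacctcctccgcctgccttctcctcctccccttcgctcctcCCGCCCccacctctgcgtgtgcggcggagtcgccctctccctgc
ADAM12, chr10:126388478-126388727, minus strand: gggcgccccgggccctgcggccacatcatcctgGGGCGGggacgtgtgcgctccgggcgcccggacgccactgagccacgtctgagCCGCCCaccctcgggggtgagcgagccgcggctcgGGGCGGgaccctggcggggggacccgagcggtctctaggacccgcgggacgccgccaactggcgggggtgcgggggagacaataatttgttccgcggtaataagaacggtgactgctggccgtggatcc
ADAMTS12, chr5:33891991-33892240, minus strand: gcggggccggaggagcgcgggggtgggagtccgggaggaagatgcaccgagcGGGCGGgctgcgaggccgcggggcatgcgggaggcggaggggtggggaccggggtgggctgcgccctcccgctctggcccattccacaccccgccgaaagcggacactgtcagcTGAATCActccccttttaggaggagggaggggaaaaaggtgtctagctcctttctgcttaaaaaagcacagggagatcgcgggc
ADAMTS18, chr16:77435035-77435284, minus strand: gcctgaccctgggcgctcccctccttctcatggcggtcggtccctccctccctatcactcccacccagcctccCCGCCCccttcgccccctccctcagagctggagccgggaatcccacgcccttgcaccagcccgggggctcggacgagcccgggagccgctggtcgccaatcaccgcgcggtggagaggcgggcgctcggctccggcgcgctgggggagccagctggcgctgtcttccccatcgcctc
All 4 windows were rich in G and C, from 68.4% in ADAMTS12 to 75.2% in ADAMTS3. All 4 held the GC box, with 3 matches in ADAM12, against 42.6% of 35116 promoters of the same length. The AP-1 letters stood in ADAMTS12 alone of the 4, with A at the centre and ending 78 bases before the start, and in 6.57% of all promoters. Among the 23 tested members with a promoter, 20 held the GC box, 1 the AP-1 letters and 0 the TATA box. The TATA box was found in 7 of the 38 members, all 7 too low to test, and in 10.7% of all promoters. The letters ACGTG (the core bound by HIF) were found in 13 and GGAATG (bound by TEAD factors) in 4 of the 38 members, against 18.5% and 11.9% of all promoters. A match describes the letters of the window and shows no binding.

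Among the ADAM genes, ADAM12 alone passed. ADAM12, a membrane and secreted protease tied to growth factor release, stood at 378, 353 and 340.3 CPM in high and 284, 267 and 267 CPM in low uptake. Each high-uptake library was above each low-uptake library by more than 50 CPM, and the low-uptake libraries were close to each other. The difference was 1.31-fold (interval 1.18 to 1.44; log2 0.39, SE 0.0733, adjusted p = 0.0143). Its call was lost without high replicate 2 (adjusted p 0.0548), low replicate 3 (0.0706) or low replicate 4 (0.0919). ADAM10, the main sheddase of Notch receptors, stood at 225, 170.4 and 196 CPM in high and 166, 144 and 151 CPM in low uptake, separated by less than 5 CPM (1.28-fold, interval 1.12 to 1.48; log2 0.36, SE 0.103, adjusted p = 0.0788). In ADAM10 the libraries numbered 2 were the highest of both groups, and the call was gained without high replicate 3 (adjusted p 0.0108) or low replicate 2 (0.0435), in DESeq2 (0.0249), without a filter (0.0199), with both libraries numbered 2 left out (0.0346) and with the GC trend removed (4.08e-04). ADAM17, the sheddase of TNF and of several EGF receptor ligands, lay between 42.8 and 49.3 CPM throughout (fold 1.02, interval 0.906 to 1.15, adjusted p = 0.913). IAH1 overlaps 12.3% of the exon bases of ADAM17 on the opposite strand.

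The other ADAM genes with a catalytic site did not pass. ADAM9, the most abundant of them, stood at 560.3, 445 and 506 CPM in high and 486, 428 and 444 CPM in low uptake, with overlap (log2 0.15, SE 0.0919, adjusted p = 0.411). By TPM, ADAM12 stood at 0.327 ± 0.0321 of ADAM9 in high uptake and 0.277 ± 0.00913 in low uptake, without overlap. ADAM8, ADAM15 and ADAM19 overlapped as well, with log2 fold changes of 0.09, -0.03 and 0.24. ADAM21 and ADAM28, averaging 1 and 1.26 CPM over the 6 libraries, also overlapped. Their log2 fold changes were -0.79 (SE 0.348, edgeR adjusted p = 0.255) and -0.09 (SE 0.291, edgeR adjusted p = 0.922). The ADAM21 estimate was the lowest of all 41 tested members. Of the ADAM genes that lack a catalytic site and act as adhesion partners, ADAM23 stood at 27.6, 26.2 and 23.2 CPM in high and 32.9, 31.9 and 32.2 CPM in low uptake. All high-uptake values of ADAM23 lay under all low-uptake values, and the difference missed the threshold (fold 0.794, interval 0.699 to 0.902; log2 -0.33, SE 0.0939, adjusted p = 0.0737). It passed in DESeq2 (adjusted p 0.0464), with the gene length trend removed (0.0459), with both libraries numbered 2 left out (0.0257) and with the GC trend removed (0.00586). ADAM22, of the same type, overlapped (log2 0.13, SE 0.121, edgeR adjusted p = 0.613), and ADAM11 and ADAM32 were under 1.1 CPM in every library. ADAM11 overlapped (log2 -0.05, SE 0.4). ADAM32 lay at 0.371 to 0.817 CPM in high and 0.854 to 1.08 CPM in low uptake, without overlap. It did not pass (log2 -0.48, SE 0.303, edgeR adjusted p = 0.442).

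The 26 members that could not be tested comprised 9 ADAM, 6 ADAMTS and 11 MMP genes. None exceeded 12 counts in a library or 48 counts in all, and 7 had 0 counts in all 6 libraries (ADAM2, ADAM6, ADAM18, ADAM30, ADAM33, MMP26 and MMP27), which allows a level of up to 0.0178 CPM over the pooled libraries, for counting error only. ADAM6 is a pseudogene in humans, and ADAM2, ADAM18 and ADAM30 are known mainly from the testis. The collagenases MMP8 and MMP13 were among the untested genes, so MMP1 was the sole collagenase at a level to be compared. Of the 41 tested members, 38 were above the filter's level of 0.361 CPM in all 6 libraries, and none passed it through 1 group alone.

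Genes that work with these proteases were read from 6 lists, of which 78 genes were tested and 12 rose and 1 fell (16.7%, against 4.29% of all tested genes). The lists were chosen with earlier results of these data known, so the shares of each list describe it and are no test of it. Among other inhibitors and clearance genes, 2 of 5 rose, against the same 3.03%. LRP1, the endocytic receptor that removes many MMPs, ADAMTS proteases and TIMPs from the cell surface, averaged 1261 ± 165 CPM in the high-uptake and 815 ± 54.8 CPM in the low-uptake libraries (SD, n = 3 in each group; log2 0.63, SE 0.0964, adjusted p = 0.0047). SPOCK1, a testican that modulates MMPs, rose by 0.47 on the log2 scale (adjusted p = 0.00728). The LRP1 call was lost with the length trend removed (adjusted p 0.0682). RECK, a membrane-anchored MMP inhibitor, stood at 12 ± 1.52 and 9.2 ± 1.42 CPM and did not pass (log2 0.38, adjusted p = 0.167).

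Of 9 related proteins and other metzincin proteases tested, 3 rose and none fell, where 3.03% of all tested genes rose. PAPPA, a metalloprotease that cleaves IGF-binding proteins, stood at 133 ± 8.05 against 80.5 ± 1.57 CPM (log2 0.72, SE 0.0791, adjusted p = 8.66e-04). ADAMTSL1, an ADAMTS-like protein without a protease domain, rose by 0.46 and PCOLCE, the enhancer of procollagen C-proteinase, by 0.44 (adjusted p = 0.0257 and 0.0400). The PCOLCE call was lost without high replicate 2, high replicate 3 or any low-uptake library (adjusted p up to 0.141), with upper quartile scaling and with the filter of 50 counts. The ADAMTSL1 call was lost without high replicate 2 or any low-uptake library (0.0537 to 0.0789) and with the length trend removed (0.114). BMP1, the C-proteinase itself, did not pass (log2 0.27, adjusted p = 0.211).

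Among matrix substrates of ADAMTS proteases, 5 of 9 rose and 1 fell, and the median of their log2 fold changes was 0.97. Of all tested genes 3.03% rose and 1.26% fell, with a median of 0. This list too was chosen with earlier results of these data known, so these values are no test of it. VCAN, the versican cleaved by ADAMTS1, ADAMTS4 and ADAMTS5, rose by 0.42 (adjusted p = 0.0182), a call lost without high replicate 2, low replicate 3 or low replicate 4 and with the length trend removed (up to 0.0965). COL1A1, COL1A2 and COL5A1, substrates of procollagen N-proteinases or their relatives, and the fibrillin gene FBN1 were the others that rose. COL5A1 lost its call without high replicate 3 (adjusted p 0.0792). FBN2 fell by 0.61 (adjusted p = 0.00642). BCAN, the brain proteoglycan brevican, stood at 3.79 ± 1.04 and 5.32 ± 0.617 CPM and did not pass (log2 -0.52, adjusted p = 0.202).

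Partners of the ADAM sheddases gave few calls. Convertases and trafficking genes activate ADAM and MMP precursors or carry ADAM10 and ADAM17 to the surface. Of 12 tested, 0 passed in edgeR, 1 in DESeq2 and 0 in limma. At an unadjusted edgeR p under 0.05 there were 3 of the 12 (25.0%), where 18.4% of all tested genes lay under it. FURIN, the convertase of many of these precursors, averaged 132 ± 15 in high and 123 ± 18.6 CPM in low uptake (log2 0.10, SE 0.119, adjusted p = 0.712). TSPAN14, a tetraspanin that carries ADAM10, had the smallest p of the list (log2 0.31, adjusted p = 0.0788). Of 25 membrane proteins shed by ADAM10 or ADAM17, TGFA, a ligand of the EGF receptor, alone rose in edgeR (79.8 ± 7.33 against 56.9 ± 5.43 CPM; log2 0.49, adjusted p = 0.0195), and its call was lost without high replicate 2, high replicate 4 or low replicate 3 (up to 0.0668). At 1 of 25, that share was near the 4.29% of all tested genes. DESeq2 and limma each called 2 of the 25 as higher, and with the GC trend removed 3 were higher and 3 lower, where 18.7% of all tested genes passed. Of 18 factors known to induce MMP genes, FOS alone rose (110 ± 8.98 against 74.5 ± 3.49 CPM, log2 0.56, edgeR adjusted p = 0.00501). At 1 of 18 (5.56%), that share too was near the 4.29% of all tested genes. JUN, the partner of FOS, stood at 276 ± 18.7 and 331 ± 24.9 CPM (log2 -0.26, edgeR adjusted p = 0.108).

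The authors' deposited list of genes, which gives 2305 symbols with no values or direction, held 15 of the 67 members. All 2305 symbols are among the 25680 genes in the count files. All 8 members called here were among the 15, and the other 7 were ADAM10, ADAM23, ADAMTS5, MMP14, MMP15, MMP16 and MMP17. Those 7 did not pass here after adjustment, but their unadjusted edgeR p ran from 0.00422 (ADAM23) to 0.0195 (MMP17). The label of the list names a p cutoff without saying whether p was adjusted, so the 7 need not mark a disagreement. The authors' deposited list rests on the same study, so this overlap is no independent evidence.

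**Figure D5:**
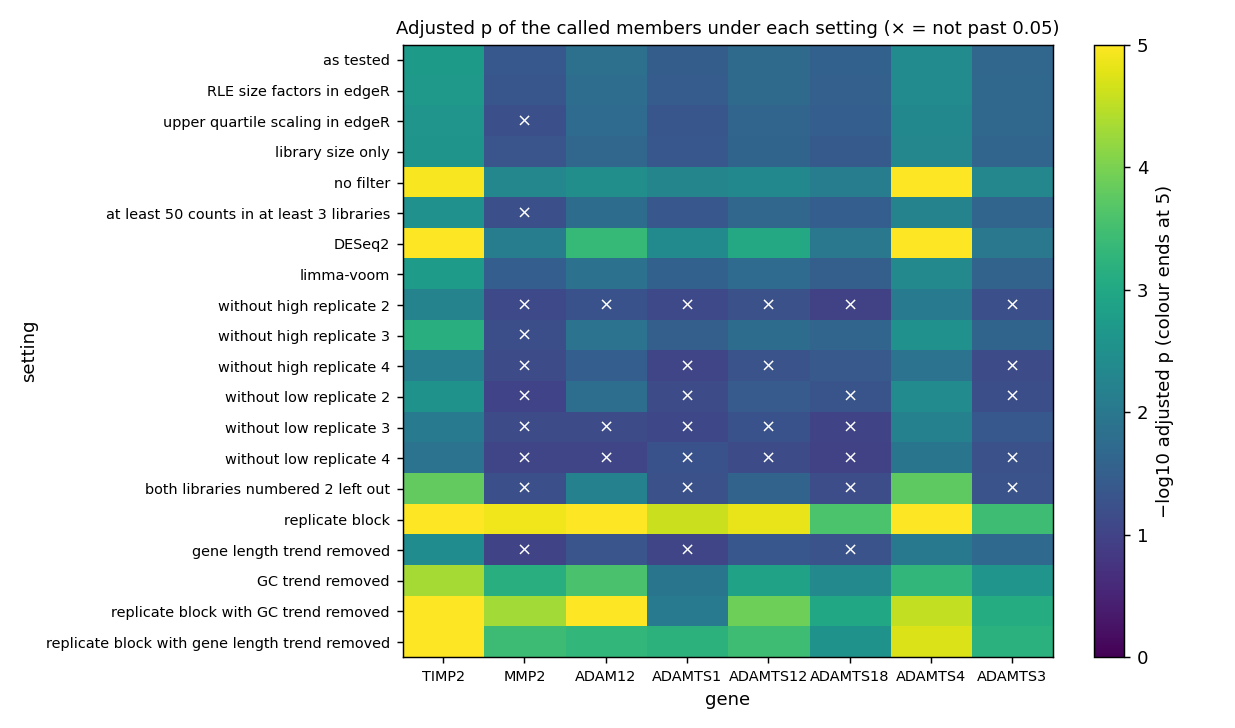
Adjusted p of the 8 called members under each setting, as colour on a −log10 scale that ends at 5, with a cross where the gene did not pass 0.05. The columns of TIMP2 and ADAMTS4 carry no cross, whereas that of MMP2 carries 10 and those of the other genes 3 to 7.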

How the data were processed

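RNA-seq of 6 libraries of sorted U87 cells was analysed. The authors deposited whole-number read counts per gene symbol, and computed the FPKM and TPM columns beside them, per the file headers. Trimming, alignment and counting tools named in the submitters' processing notes are fastp, STAR and featureCounts, with genome build hg19. No source used here gives the annotation, strand setting or multi-mapping rule. A directional kit was used, per the labels' protocols. Counts were tested, FPKM served to recover gene length, and TPM to compare levels between genes. A deposited list of gene symbols, made by the authors, holds no values.

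Genes passing filterByExpr (minimum count 10, minimum total 15) were kept, 14598 of 25680. Libraries were scaled by TMM, and edgeR 4.0.16 (quasi-likelihood F-test, robust, no covariate, two-sided, Benjamini-Hochberg) gave p. The standard error is the log2 fold change divided by the square root of F. DESeq2 1.42.0, limma 3.58.1 and other scalings, filters, trends and library subsets were run as alternatives. Scripts were tested on simulated counts. GC content came from GENCODE release 29 transcripts, matched for 92.8% of tested genes and all 41 tested members.

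Members, gene lists and role groups were chosen with earlier results of these data known. Named with full values are members that passed, members of at least 10 CPM on average, and the smallest p of each subfamily.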

Additional observations from a re-analysis of the deposited data

How the results depend on the processing

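Over 19 alternatives, 29 members and 13 other called genes were refitted. TIMP2 and ADAMTS4 kept their calls in each, and the direction of all 8 called members held in each. Members that rose numbered 7 as tested, 4 with the gene length trend removed, 13 with the GC trend removed, and from 2 to 8 without single libraries. Members that fell numbered 1 as tested, 2 in DESeq2, 2 with the length trend removed, 2 with the GC trend removed, and from 0 to 1 without single libraries. Genes of the 6 pathway lists that passed numbered 13 as tested, 27 with the GC trend removed and from 9 to 12 without single libraries; the cause of these shifts was not tested. All tested genes that passed numbered 626 as tested, 421 with the length trend removed and 2538 with the GC trend removed.

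With the replicate number as a block, 17 members rose, 3 fell and 34 list genes passed. In all, 3176 genes passed in that fit (21.8% of those tested). With the block and the GC trend removed, 18 members rose, 4 fell and 39 list genes passed, where 28.6% of all tested genes passed. With the block and the length trend removed these were 14, 2 and 32, where 18.7% of all tested genes passed. The block also ended calls: COL5A1 was lost with it (adjusted p 0.0839) and with block and length trend removed (0.106), and COL1A1 with the latter (0.0533). No label states that libraries with 1 number belong together. The deposited names of both libraries numbered 2 carry a suffix that the other names lack, and its meaning is not given. Deviations of same-numbered libraries correlated across genes at 0.45, 0.30 and 0.09 for numbers 2, 3 and 4. Libraries numbered 2 correlated negatively with the other numbers of the opposite group (-0.40 to -0.11). Low replicate 4 correlated at 0.22 with high replicate 3, but low replicates 3 and 4 were close to each other. These values therefore cannot decide whether the numbers mark pairs, and the main fit took none because the labels state none.

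Sign changes were seen only in genes not called, with the lowest and highest log2 fold change without single libraries given for each: ADAM8 (-0.02 to 0.16, -0.02 without high replicate 3 or low replicate 2), ADAM15 (-0.16 to 0.04, 0.04 without high replicate 2, 0.02 without high replicate 4), ADAM17 (-0.02 to 0.07, -0.02 without high replicate 2), ADAMTS7 (-0.20 to 0.06, with 0.06, 0.05 and 0.02 without high replicate 2, low replicate 3 and low replicate 4), MMP3 (-0.03 to 0.06, -0.03 without high replicate 4, -0.00 without low replicate 2), MMP1 (-0.78 to 0.24, with 0.24 and 0.08 without high replicate 2 and low replicate 4), TIMP1 (-0.04 to 0.25, -0.04 without low replicate 2) and TIMP3 (-0.02 to 0.59, -0.02 without high replicate 4). Depth limits the genes under 1 CPM, such as MMP9, MMP12 and ADAM11.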
